A study of Mus musculus with 2 samples.

Results

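The nuclear lamins and the proteins that link the nucleus to the cytoskeleton were examined as 10 genes chosen by name: Lmna, Lmnb1, Lmnb2, Emd, Syne1, Syne2, Syne3, Sun1, Sun2 and Tmpo. They are 10 of the 55536 annotated genes in the tables and 10 of the 22015 nuclear protein-coding genes, and all 10 were found. Total RNA of gastrocnemius, the large calf muscle, was sequenced from female B6CASTF1/J mice aged 2 months, an F1 cross between the B6 and CAST strains. There was 1 group of 2 libraries, each made from 300 ng of total RNA to which ERCC spike-ins were added. Replicate 1 is referred to as animal 1 and replicate 2 as animal 2. The labels number the mice separately but list 1 donor record for both, so the spread between the libraries may not be one between mice. Cell markers given below also differed between the libraries. No contrast of conditions existed and no p-value was computed, since the smallest two-sided exact p on 2 values is 0.5.

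Lamins are intermediate filament proteins that form a meshwork under the inner nuclear membrane. A-type lamins are encoded by Lmna, and B-type lamins by Lmnb1 and Lmnb2. SUN proteins cross the inner membrane and bind, in the space between both membranes, the KASH domain at the end of nesprins, which cross the outer membrane. This bridge, the LINC complex, ties the lamina to actin, microtubules and intermediate filaments, and in muscle it holds the nuclei in place along the fibre. Emerin and the LAP2 proteins carry a LEM domain and tether chromatin to the lamina. Mutations in LMNA and EMD cause Emery-Dreifuss muscular dystrophy in humans.

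Gene levels came from a gene table and transcript levels from 2 transcript tables per library. Gene-level values and those of the first transcript table derive from reads aligned to the transcriptome, and the second transcript table from the reads themselves. Named genes held 45014831 reads in animal 1 and 47771308 in animal 2. Myofibre markers summed to 56770 TPM in animal 1 and 54819 TPM in animal 2. These values fit skeletal muscle but cannot single out gastrocnemius. The libraries stood apart in other cell markers. Slow-fibre markers summed to 417 TPM in animal 1 against 2321 TPM in animal 2, and 5 of 5 were 2-fold or more higher in animal 2. Adipocyte markers summed to 761 TPM in animal 1 against 98.5 TPM in animal 2, and Schwann cell markers to 248 TPM and 33.4 TPM in the same order, with 6 of 6 in each list 2-fold or more higher in animal 1. Tenocyte markers summed to 114 TPM in animal 1 against 204 TPM in animal 2, with all 5 lower in animal 1 and 2 of 5 at 2-fold or more. Fibroblast markers summed to 494 TPM in animal 1 against 428 TPM in animal 2, with 3 of 5 higher in animal 1. Only Col3a1 of these was 2-fold or more higher there, with 126 TPM against 58.5 TPM in animal 2. Dcn and Col1a1, the highest of the list, were slightly lower in animal 1, with log2 ratios of -0.13 and -0.16. Fewer cells of a type and less RNA per cell cannot be told apart in such bulk samples.

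Sequences of the nesprin transcripts are given here, read from GENCODE M21 on GRCm38. The ends of the nesprin transcripts are shown because they encode the part of the KASH domain that enters the SUN domain. Each run holds the last 20 codons and the stop codon, with the last 4 codons and the stop in capitals.
Syne1-205 (giant nesprin-1): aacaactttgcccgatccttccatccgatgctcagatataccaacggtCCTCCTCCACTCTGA
Syne2-210 (giant nesprin-2): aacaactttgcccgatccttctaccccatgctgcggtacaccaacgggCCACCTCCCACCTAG
Syne3-201 (nesprin-3): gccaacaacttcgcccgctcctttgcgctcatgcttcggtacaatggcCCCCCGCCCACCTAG
Over the last 60 coding bases, Syne1-205 and Syne2-210 were equal at 48 positions. Compared position by position from the stop codon and without gaps, Syne3-201 was equal to Syne1-205 at 25 and to Syne2-210 at 29. In Syne3-201 the codon tac is followed directly by aat, where the other runs have the codon acc in between. Bases before that point are thus compared out of register, and the counts of 25 and 29 understate the likeness of these ends.

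All 10 genes reached 1 TPM in both animals, and their levels spanned a wide range. In the gene table Lmna and Sun2 were the highest, and Lmnb2, Lmnb1 and Syne3 the lowest. Lmna averaged 33.5 ± 5.52 TPM (SD, n = 2), above 85.9% of the 10227 nuclear protein-coding genes at 1 TPM or more in both animals. Lmnb2 averaged 1.28 ± 0.283 TPM, above 2.19% of them. The median of these genes was 7.74 TPM. The order by mean was Lmna, Sun2, Tmpo, Syne1, Sun1, Emd, Syne2, Syne3, Lmnb1 and Lmnb2. Of the 9 pairs of neighbours in that order, Lmna and Sun2, Tmpo and Syne1, and Syne3 and Lmnb1 did not differ by more than 2 times the SD of their log2 ratio over the animals. The other 6 pairs did, with 1 sign in both animals.

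**Figure D1:**
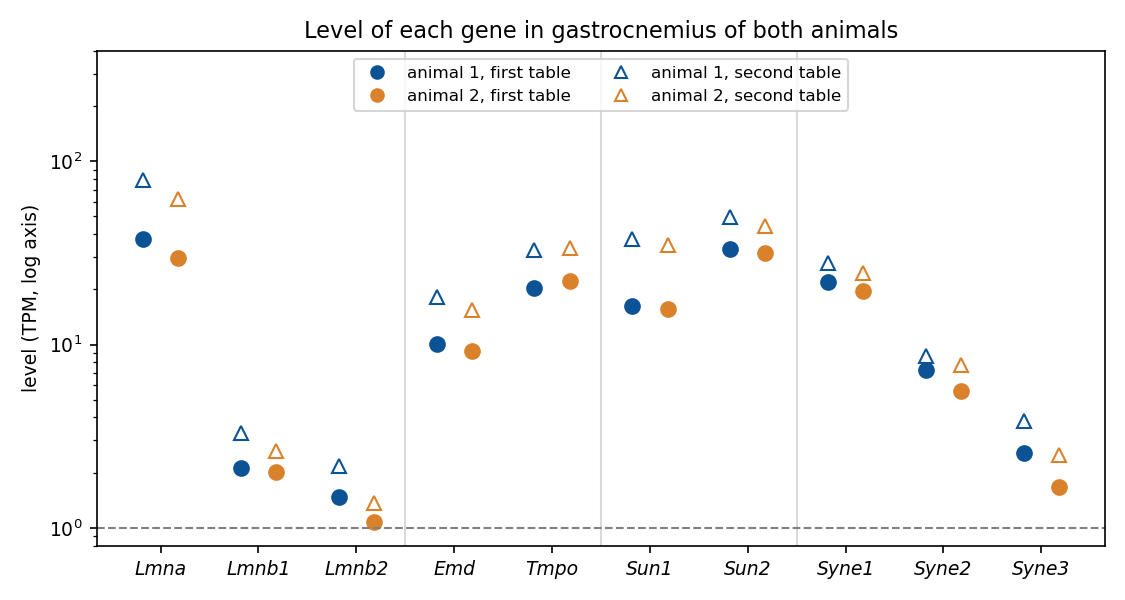
TPM of each gene on a log axis, animal 1 in blue left of animal 2 in orange, with circles for the gene table (called the first table in the key) and triangles for the second transcript table summed per gene. Vertical lines part lamins, LEM proteins, SUN proteins and nesprins, and the dashed line marks 1 TPM. In both tables Lmna lies far above Lmnb1 and Lmnb2, and every triangle lies above its circle.

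Among the lamins, the A-type gene far exceeded the B-type genes. Lmna (chr3:88480147-88509956, minus strand, mm10) had 37.4 TPM in animal 1 and 29.6 TPM in animal 2. Lmnb1 (chromosome 18) had 2.13 and 2.03 TPM in the same order, and Lmnb2 (chr10:80901203-80918245, minus strand) had 1.48 and 1.08 TPM. No Lmnb1 or Lmnb2 value came near any Lmna value. The log2 ratio of Lmna over the sum of Lmnb1 and Lmnb2 was 3.34 in animal 1 and 3.21 in animal 2, a mean of 3.27 ± 0.09, or 9.67-fold. This is larger than the spread between the animals. The second transcript table gave a log2 ratio of 3.88. Lmnb1 exceeded Lmnb2 by 0.67 ± 0.25 on the log2 scale, also more than 2 SD. B-type lamins are made in nearly all cells. Markers of proliferating cells summed to 0.25 TPM in animal 1 and 0.17 TPM in animal 2, with Ccnb1 at 0 in both. Any link to the low Lmnb1 and Lmnb2 levels was not tested.

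Lmna made more lamin C than lamin A transcript in the first table. Lmna-203, lamin C with 574 codons, had 22.2 TPM in animal 1 and 18.0 TPM in animal 2. Lmna-201, lamin A with 665 codons, had 13.6 TPM in animal 1 against 10.9 TPM in animal 2. The lamin A transcript held 36.9% of the coding TPM of the gene in animal 1 and 37.4% in animal 2, and lamin C exceeded lamin A 1.64-fold in animal 1 and 1.65-fold in animal 2. The ratio was almost the same in both animals, but it did not hold in the second table. There lamin C over lamin A was 0.873 in animal 1 and 1.01 in animal 2, so the 2 forms were not apart beyond the spread.

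The tables divided the remaining Lmna signal very differently. Lmna-202 starts further inside the gene and ends like lamin C after 462 codons, the length of lamin C2, a form known from male germ cells. It had 0.84 TPM in animal 1 and 0.11 TPM in animal 2 in the first table, against 18.0 and 12.3 TPM in the second. Lmna-206, an incomplete model of 785 nt, had 0.11 and 0.13 TPM in the first table and 24.4 and 20.05 TPM in the second, where it led the gene. The posterior SD of the Lmna-202 count in the first table was 50.3 reads in animal 1 and 45.5 reads in animal 2, beside counts of 45.4 and 6.23. These files thus give no single level for it, and the cause of the difference between the tables was not tested. Of the B-type genes, Lmnb1 came wholly from Lmnb1-201 in the first table. Lmnb2 was divided between Lmnb2-201, with 62.8% in animal 1 and 39.3% in animal 2, and Lmnb2-204, with 29.1% and 57.0%. The second table gave Lmnb2-204 81.1% in animal 1 and 86.5% in animal 2, and posterior SDs of 35.6 to 38.2 reads beside counts of 52.5 to 120 leave the split of Lmnb2 imprecise.

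**Figure D2:**
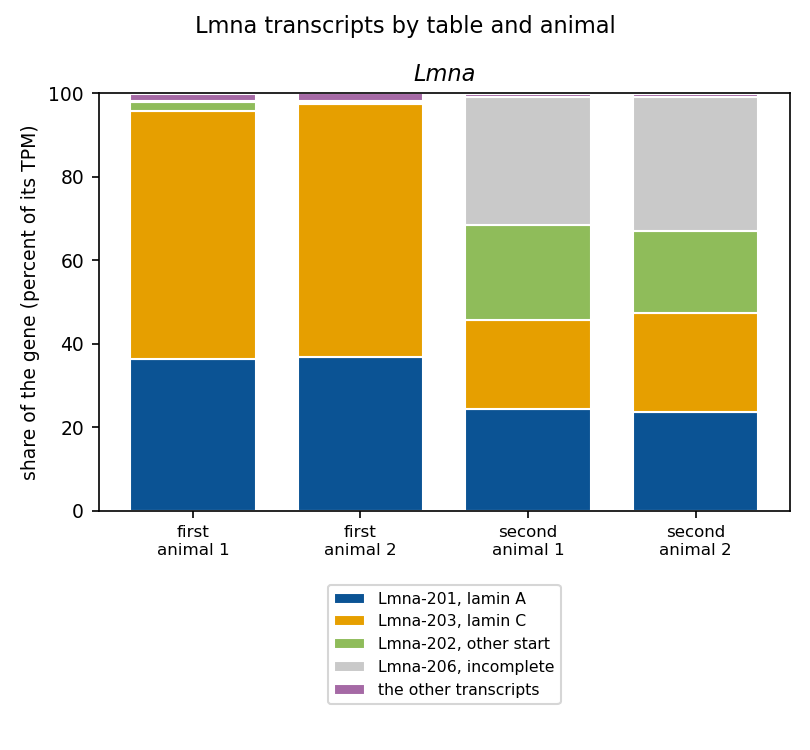
Share of the Lmna TPM held by each transcript, in percent, for the first and the second transcript table, with animal 1 left of animal 2 in each. The first table puts nearly all of the gene on lamin A and lamin C, and the second puts its largest segment on the incomplete Lmna-206 and a further large segment on Lmna-202.

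Of the LEM-domain genes, Tmpo was higher than Emd. Emd (chrX:74254687-74261548, plus strand) encodes emerin and had 10.04 TPM in animal 1 and 9.20 TPM in animal 2. Tmpo (chr10:91147571-91181315, minus strand) encodes the LAP2 proteins and had 20.3 TPM in animal 1 against 22.3 TPM in animal 2. The groups of values did not overlap. The log2 ratio of Tmpo over Emd was 1.14 ± 0.18, larger than the spread. Emd came almost wholly from 1 transcript in the first table, Emd-201 with 259 codons, which held 96.1% of its TPM in animal 1 and 97.4% in animal 2. In the second table that share was 66.2% in animal 1 and 73.8% in animal 2, and Emd-206, annotated as a target of nonsense-mediated decay, had 5.27 TPM in animal 1 and 3.42 TPM in animal 2.

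Tmpo was spread over many transcripts. Tmpo-202, with 452 codons the length of LAP2 beta, a form anchored in the inner membrane, had 4.71 TPM in animal 1 and 4.67 TPM in animal 2. Tmpo-201, with 693 codons the length of LAP2 alpha, a form without a membrane anchor that binds A-type lamins inside the nucleus, had 2.35 and 2.12 TPM in the same order. Tmpo-201 held 11.6% of the gene in animal 1 and 9.50% in animal 2, short of the 10% in both animals that selects the transcripts described here, and was added for its role after its values were seen. Tmpo-202 exceeded Tmpo-201 by 2.00-fold in animal 1 and 2.20-fold in animal 2. Tmpo-203, with 412 codons, had 3.77 TPM in animal 1 and 2.58 TPM in animal 2. Tmpo-204, with 380 codons, had 1.96 TPM in animal 1 against 4.30 TPM in animal 2. The noncoding Tmpo-210 of 654 nt had 3.10 and 5.51 TPM in that order. Thus the longer forms stood level or higher in animal 1, while Tmpo-204 and Tmpo-210 were higher in animal 2.

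Of the SUN genes, Sun2 was the higher. Sun2 (chr15:79724070-79742536, minus strand) had 33.4 TPM in animal 1 against 31.7 TPM in animal 2, and Sun1 (chr5:139200637-139249840, plus strand) had 16.2 TPM in animal 1 and 15.5 TPM in animal 2. Both proteins are inner membrane anchors for nesprins. The log2 ratio of Sun1 over Sun2 was -1.04 in animal 1 and -1.02 in animal 2, so Sun1 lay 2.04-fold below Sun2, with an SD of 0.00879. In the second table the mean was -0.37 ± 0.03, with Sun1 at 37.7 TPM in animal 1 against 34.9 TPM in animal 2. The direction was the same and the size much smaller. Sun2 came mainly from Sun2-201, with 50.1% of its TPM in animal 1 and 49.8% in animal 2, and Sun2-203, with 37.4% and 34.2%. These transcripts encode 731 and 729 codons and are hard to separate, with posterior SDs of 226 and 209 reads in animal 1.

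Sun1 transcripts differ in optional exons, and the share of TPM that held them differed between the animals, with no replicate to test it. Sun1-201, with 913 codons, had 3.41 TPM in animal 1 and 1.60 TPM in animal 2. Sun1-205, with 790 codons, had 3.37 TPM in animal 1 and 5.67 TPM in animal 2. It lacks 3 exons of Sun1-201, of 192, 66 and 111 nt, each a whole number of codons (64, 22 and 37). Sun1-201 over Sun1-205 was 1.01 in animal 1 and 0.282 in animal 2 in the first table, and 0.772 in animal 1 and 0.223 in animal 2 in the second. In counts, Sun1-201 had 518 reads in animal 1 with a posterior SD of 70.7, and 258 reads in animal 2 with a posterior SD of 47.1.

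Among the Sun1 transcripts that span each exon, the 192-nt exon (chr5:139229753-139229944) was held by 49.9% of the TPM in animal 1 and 28.5% in animal 2. The 66-nt exon (chr5:139230773-139230838) was held by 67.1% in animal 1 and 45.2% in animal 2, and the 111-nt exon (chr5:139231127-139231237) by 47.2% and 31.1%. In the second table the 192-nt exon was held by 41.9% in animal 1 and 24.3% in animal 2, the 66-nt exon by 67.2% in animal 1 and 47.1% in animal 2, and the 111-nt exon by 48.4% in animal 1 and 33.3% in animal 2. Every share was higher in animal 1 in both tables. In Tmpo, the 96-nt exon (chr10:91153085-91153180) was held by 81.7% in animal 1 and 62.6% in animal 2, and by 79.4% and 63.2% in the second table. The 120-nt exon of Tmpo (chr10:91153278-91153397) was nearly level, with 39.5% in animal 1 and 37.6% in animal 2. Over all transcripts with a mean of 100 reads or more in genes of more than 1 transcript, 6.1% (942 of 15446) had a share of their gene 10 points or more apart between the animals, in the same direction in both tables. Of 23 such transcripts of the 10 genes, 0 passed. At 5 points in both tables, 3 of the 23 (13.0%) passed, which were Sun1-201, Sun1-205 and Tmpo-204, beside 16.3% (2517 of 15446) over all such transcripts. Neither share of the 10 genes was above that of all transcripts. This background counts transcript shares of a whole gene, and none was computed for exon shares among spanning transcripts. The transcript measure was chosen after the exon values were seen. Slow-fibre, adipocyte, Schwann cell and tenocyte markers also moved between the animals, as given above, and their part in these exon shares was not tested.

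**Figure D3:**
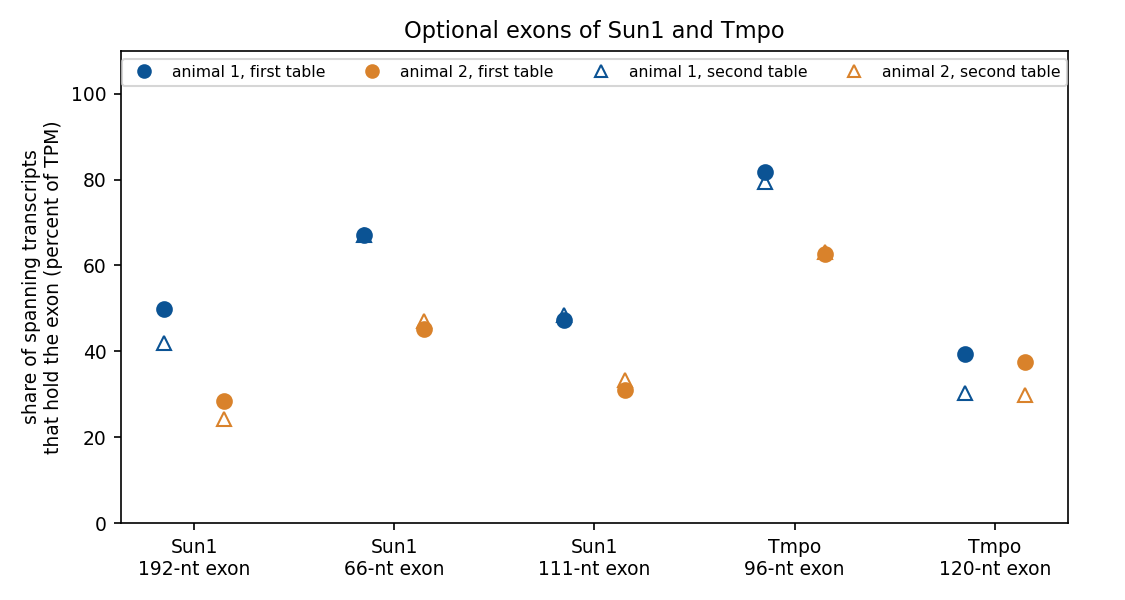
Percent of the TPM of the transcripts that span an exon and hold it, for 5 optional exons of Sun1 and Tmpo, with circles for the first table and triangles for the second and animal 1 in blue left of animal 2 in orange. Points for the Sun1 exons and the 96-nt exon of Tmpo lie higher in animal 1 in both tables, and those of the 120-nt exon are level between the animals.

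Of the nesprin genes, Syne1 was the highest in each animal, then Syne2, then Syne3. Syne1 (chr10:5020917-5551482, minus strand) had 22.0 TPM in animal 1 and 19.5 TPM in animal 2. Syne2 (chr12:75818134-76110926, plus strand) had 7.28 TPM in animal 1 and 5.55 TPM in animal 2. Syne3 (chr12:104929933-105009809, minus strand), whose protein binds plectin and so intermediate filaments, had 2.56 and 1.68 TPM in that order. The log2 ratio of Syne1 over Syne2 was 1.58 in animal 1 and 1.80 in animal 2, a mean of 1.69 ± 0.15 or 3.22-fold. Syne2 over Syne3 was 1.57 ± 0.14. Both exceeded 2 SD. The SUN genes summed to 49.6 TPM in animal 1 and 47.2 TPM in animal 2, above the nesprin genes at 31.8 and 26.8 TPM, and the log2 ratio of nesprins over SUN genes was -0.73 ± 0.13.

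Syne1 was mainly a short transcript by TPM, while the giant held most of its reads. Syne1-202, of 3443 nt and 949 codons, had 11.7 TPM in animal 1 and 11.2 TPM in animal 2, or 53.2% and 57.2% of the gene. Short KASH-ended nesprin-1 of this kind, nesprin-1 alpha, is known from striated muscle. Syne1-205, the giant of 27908 nt, 146 exons and 8799 codons, with the actin-binding start, had 6.14 TPM in animal 1 and 5.4 TPM in animal 2, or 27.9% and 27.7%. It nonetheless took 75.7% of the reads in animal 1 and 75.6% in animal 2, since a longer transcript yields more reads per molecule. Syne1-202 exceeded the giant 1.90-fold in animal 1 and 2.07-fold in animal 2 in the first table, and 1.52-fold and 1.64-fold in the second. The short form was higher in both animals and both tables. Transcripts with the KASH end, which are Syne1-202 and Syne1-205, together held 81.1% of the gene in animal 1 and 84.8% in animal 2.

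The short and the giant forms share their last 60 coding bases exactly, so the SUN-binding end printed above for Syne1-205 also ends Syne1-202. They differ at the start. The first 120 coding bases of Syne1-202 are shown because the 90 in capitals, which are 30 codons, do not occur in Syne1-205.
Syne1-202 start (chromosome 10): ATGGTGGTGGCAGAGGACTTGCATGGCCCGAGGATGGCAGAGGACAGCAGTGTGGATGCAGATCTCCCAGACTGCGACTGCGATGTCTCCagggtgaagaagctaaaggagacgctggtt
The upstream 250 bases of both starts are shown, from RefSeq on GRCm38.p6, because the annotation gives the short and the giant form separate starts. Initiation at either start was not measured. Capitals mark every complete E box, CANNTG, the motif of the myogenic basic helix-loop-helix factors, searched on both strands.
Syne1 giant start (chr10:5550693-5550942, minus strand): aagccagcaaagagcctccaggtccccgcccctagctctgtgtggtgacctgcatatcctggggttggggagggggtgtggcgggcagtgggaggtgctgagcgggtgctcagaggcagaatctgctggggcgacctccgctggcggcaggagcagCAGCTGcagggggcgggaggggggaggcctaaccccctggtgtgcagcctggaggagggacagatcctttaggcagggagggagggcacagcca
Syne1 short start (chr10:5069064-5069313, minus strand): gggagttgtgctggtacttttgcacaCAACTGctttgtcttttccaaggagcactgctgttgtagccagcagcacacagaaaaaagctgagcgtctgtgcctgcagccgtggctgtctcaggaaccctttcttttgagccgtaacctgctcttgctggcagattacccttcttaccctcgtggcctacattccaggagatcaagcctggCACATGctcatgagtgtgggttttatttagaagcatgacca
Over each full RefSeq window, which adds 50 bases past the start, the giant start had 69% GC, 12 CpG and 1 E box, of the form CAGCTG. The short start had 50.3% GC, 4 CpG and 4 E boxes. Of all 32851 RefSeq windows, 72.3% hold an E box and 16.3% hold CAGCTG, and the medians are 52.7% GC and 7 CpG. An E box is thus common. Of 15 windows for 9 of the 10 genes, 0 held the MEF2 motif, which 3.19% of all windows hold. No match says only that these letters are not in the window.

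By TPM, the KASH-ended share was lower in Syne2 than in Syne1, while by reads most of both genes lay on KASH-ended transcripts. Its giants, Syne2-210 of 21704 nt and Syne2-201, together held 21.7% of the TPM in animal 1 and 21.8% in animal 2, and 71.1% and 69.5% of the reads. In the second table they held 28.8% in animal 1 and 23.7% in animal 2. Transcripts with the KASH end held 31.1% of Syne2 in animal 1 and 32.5% in animal 2, below the 81.1% and 84.8% of Syne1. Only transcripts annotated as protein-coding were counted as KASH-ended. Models of Syne2 shorter than 1000 nt held 31.2% of its TPM in animal 1 and 23.5% in animal 2. Those short models rested on 38.0 and 24.0 reads in that order. Of the reads, KASH-ended transcripts held 81.0% of Syne2 in animal 1 and 78.9% in animal 2, and 93.1% and 94.4% of Syne1. In the second table they held 87.3% of the Syne2 reads in animal 1 and 84.7% in animal 2, and 92.9% and 93.7% of the Syne1 reads. Counted in this way, the shares of the genes did not overlap by either measure in either table. The leading single transcript in the first table was Syne2-206, a model of 3606 nt with an incomplete start that is annotated as a target of nonsense-mediated decay. Syne2-206 ends at the same base as Syne2-210 and was not counted as KASH-ended because of that annotation. It had 1.81 TPM in animal 1 and 1.70 TPM in animal 2, or 24.9% and 30.7% of the gene. Its reads were 240 of 1810 for the gene in animal 1 and 239 of 1514 in animal 2. By reads, the lower KASH-ended share of Syne2 thus depended on leaving Syne2-206 out. In the second table the giant Syne2-210 led by its mean, with 28.8% in animal 1 and 20.8% in animal 2, and Syne2-206 held 21.9% and 24.0%, so the order there differed between the animals.

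**Figure D4:**
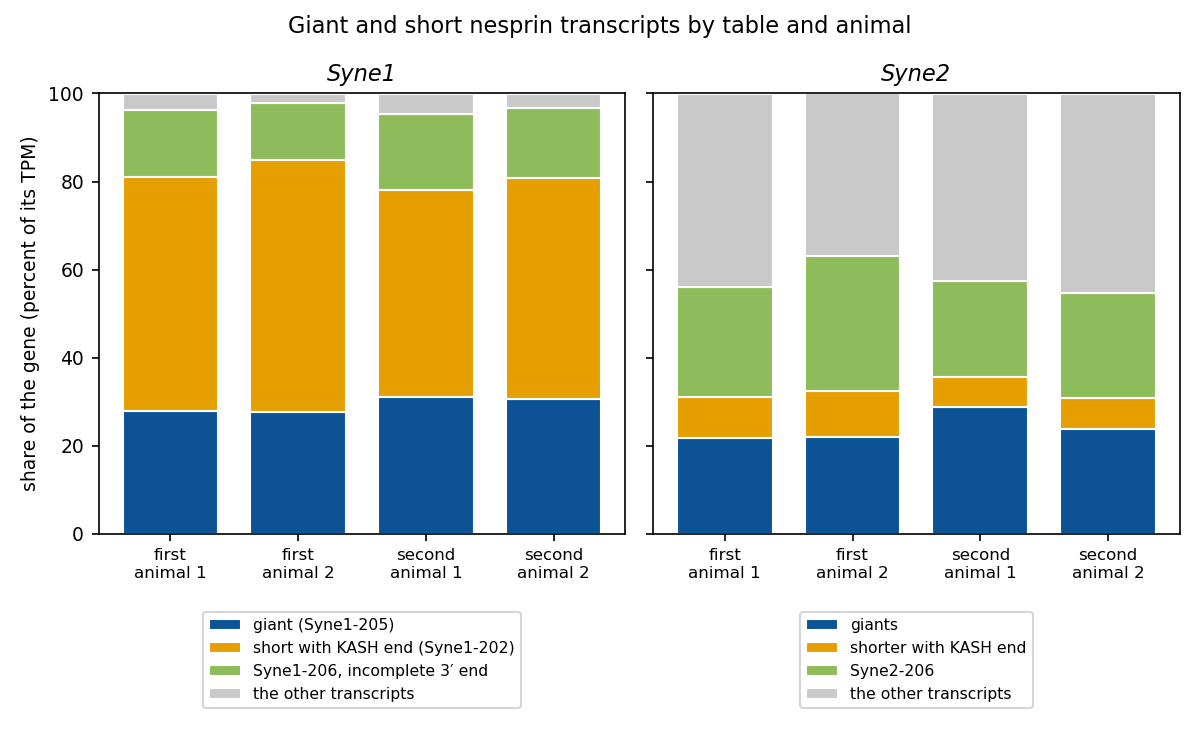
Share of the TPM of Syne1 and Syne2 held by transcript classes, in percent, for the first and the second transcript table, with animal 1 left of animal 2 in each. The short KASH-ended Syne1-202 is the largest segment of Syne1 in all 4 bars, and in Syne2 protein-coding KASH-ended transcripts hold at most 35.6%.

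An exon of 69 nt, or 23 codons, occurs in Syne1 and in Syne2 shortly before the KASH end. The exons are shown because they have equal length in both genes but are used by different transcripts. Capitals mark the 44 of 69 bases (63.8%) that are equal.
Syne1 69-nt exon (chr10:5045266-5045334, minus strand): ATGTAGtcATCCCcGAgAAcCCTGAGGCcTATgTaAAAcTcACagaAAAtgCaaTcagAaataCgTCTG
Syne2 69-nt exon (chr12:76100028-76100096, plus strand): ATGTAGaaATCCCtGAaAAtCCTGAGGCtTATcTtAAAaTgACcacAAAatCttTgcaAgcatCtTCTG
In Syne1 the annotation places the exon in the giant Syne1-205 and not in the short Syne1-202. In Syne2 it is in Syne2-202 and Syne2-206 and not in the giants. Among Syne2 transcripts that span it, holders made 58.5% of the TPM in animal 1 and 52.6% in animal 2, and 49.8% and 56.5% in the second table, so no direction between the animals was kept. Syne3 has 3 transcripts, all with the KASH end. In the first table Syne3-201 held 62.9% of its TPM in animal 1 and 60.1% in animal 2, and Syne3-202 held 37.1% and 39.9%. In the second table Syne3-201 held 42.9% in animal 1 and 60.3% in animal 2, and Syne3-202 39.8% and 39.7%. Syne3-203 held 17.3% in animal 1 there and 0% in animal 2.

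The second table gave every gene a higher level than the first, from 1.26-fold for Syne1 to 2.29-fold for Sun1 by the means. All nuclear protein-coding genes together held 38.1% of the TPM in animal 1 and 37.3% in animal 2 in the gene table. In the second table they held 62.0% and 59.9%, so a higher level there was not particular to these 10 genes. Transcripts shorter than 1000 nt, a limit chosen after the values were seen, held 32.2% of Sun1 in animal 1 and 29.2% in animal 2 in the first table, and 58.2% and 56.2% in the second. For Lmna the same shares were 0.294% and 0.439% in the first table and 30.7% and 32.2% in the second. Syne1 and Syne3 have 0 transcripts of that length. For Sun1, the incomplete models Sun1-212 and Sun1-219 were at 0 TPM in the first table, while Sun1-212 had 11.7 TPM in animal 1 and 5.02 TPM in animal 2 in the second and Sun1-219 had 5.72 and 8.85 TPM. For Syne2, the incomplete Syne2-212 of 585 nt had 0.97 TPM in animal 1 and 0.89 TPM in animal 2 in the first table, and Syne2-211 was at 0 there but had 1.51 and 1.38 TPM in the second. In Syne1, the remaining transcript above 10% was Syne1-206, of 3894 nt with an incomplete 3′ end, with 3.31 TPM in animal 1 against 2.52 TPM in animal 2. Syne2 has 8 transcripts under that length, and its level was 1.28-fold higher in the second table. They held 31.2% of Syne2 in animal 1 and 23.5% in animal 2 in the first table, and 34.9% and 39.5% in the second. By the means, such transcripts held 25.9% of Tmpo in the first table and 26.4% in the second, with a 1.56-fold higher level. For Emd the shares were 1.95% and 28.1% (1.75-fold), and for Sun2 5.18% and 6.46% (1.44-fold). The part of short transcripts in the higher levels was not tested.

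Between the animals, 0 of the 10 genes were 2-fold or more apart. Over the 10872 genes that averaged 100 reads or more, 2.97% were, with 2.18% higher in animal 1 and 0.791% higher in animal 2. A count of 0 of 10 is near that background. With counts scaled by TMM, 6 genes were higher in animal 1 and 4 in animal 2. The median log2 of animal 1 over animal 2 was 0.04, beside -0.02 over all genes tested. Syne3 was furthest apart at 0.51, or 1.42-fold, with a 95% counting interval of 0.29 to 0.73 from 419 reads in animal 1 and 289 in animal 2. Of all genes tested, 89.8% were less far apart than Syne3. Syne2 stood at 0.23 (0.13 to 0.33) and Lmna at 0.22 (0.14 to 0.29). Tmpo was lower in animal 1 at -0.16 (-0.26 to -0.06), and Syne1 stood at 0.07 (0.03 to 0.11). The intervals of Lmnb1, Lmnb2, Emd, Sun1 and Sun2 included 0. Scaling by spike-ins moved the median of all genes to -0.22 and by library size to 0.09. Under spike-ins Emd and Syne1 changed sign, under library size Lmnb1, Sun1 and Sun2 did, and in the second table Lmnb1 did. These intervals are exact binomial, cover counting error only and leave out the choice of scaling and differences between mice. Spike-in scaling put 7 of the 10 genes outside their interval, with Lmna at 0.02 and Syne2 at 0.03, and library size put 6 outside.

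**Figure D5:**
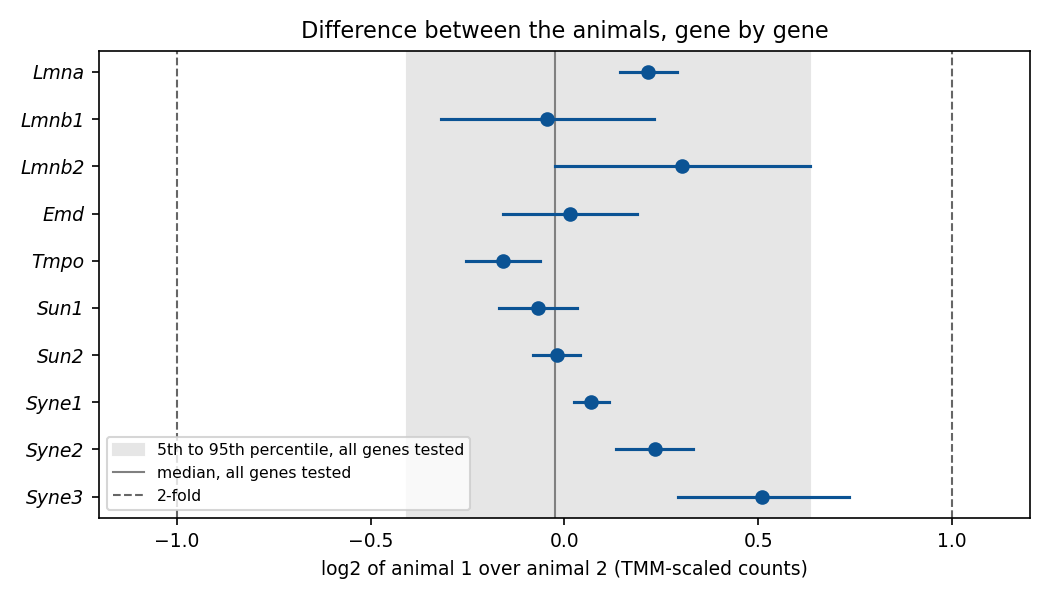
Log2 ratio of animal 1 over animal 2 for each gene from TMM-scaled counts, with bars for the 95% counting interval, the grey band for the 5th to 95th percentile and the grey line for the median of all 10872 genes tested, and dashed lines at 2-fold. All 10 points lie inside the grey band.

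Genes that work with the lamina were read from lists of relatives and partners. Of 18 other LINC and inner membrane genes, 11 reached 1 TPM in both animals, and Sun3 and Sun5, known from testis, were at 0 in both. Of the 11 that averaged 100 reads or more, 0 were 2-fold or more apart in TMM-scaled counts, near the 2.97% of all genes tested. Tmem43, which encodes the inner membrane protein LUMA and was named after its values were seen, was furthest apart of these, with 15.6 TPM in animal 1 against 7.52 TPM in animal 2 and a log2 ratio of 0.84 in those counts. Banf1, which bridges DNA and LEM proteins, was highest with 50.8 TPM in animal 1 and 51.6 TPM in animal 2. Tor1aip1, which encodes the lamina-associated LAP1, had 44.1 TPM in animal 1 against 41.2 TPM in animal 2, and Tor1aip2 had 19.8 and 20.3 TPM. All 5 lamin processing genes were detected, led by the farnesyltransferase subunit gene Fnta with 24.2 TPM in animal 1 and 25.6 TPM in animal 2. Zmpste24, the protease that matures lamin A, had 7.48 TPM in animal 1 against 7.28 TPM in animal 2, and Icmt, which methylates the farnesylated end, had 7.44 and 6.5 TPM.

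All 8 genes on the list of muscle nuclear envelope proteins were detected, led by Fhl1, whose human counterpart is also mutated in Emery-Dreifuss dystrophy, with 1029 TPM in animal 1 and 740 TPM in animal 2. Tmem38a, which encodes the cation channel TRIC-A of nuclear and sarcoplasmic reticulum membranes, followed with 399 TPM in animal 1 against 425 TPM in animal 2, and Klhl31 with 163 and 176 TPM. Of the 13 cytoskeletal partners all were detected. Des, the muscle intermediate filament desmin, had 840 TPM in animal 1 against 730 TPM in animal 2, and Plec, whose protein plectin joins nesprin-3 to desmin, had 307 and 294 TPM. Dst, another plakin gene, had 101 TPM in animal 1 and 104 TPM in animal 2. All 15 nuclear pore genes were detected, led by Tpr with 41.0 TPM in animal 1 and 36.4 TPM in animal 2, then Nup153 with 18.5 and 16.7 TPM and Nup88 with 13.4 and 12.5 TPM. In the lists of processing, muscle envelope, cytoskeletal and nuclear pore genes every gene averaged 100 reads or more. Of these, 0 were 2-fold apart in TMM-scaled counts, near the 2.97% of all genes tested. Median log2 ratios of animal 1 over animal 2 ran from -0.19 for the muscle envelope genes to 0.01 for the processing genes, beside -0.02 over all genes tested. A further 9 annotated genes overlap 6 of the 10 genes, 5 of them on the other strand, and 0 of the 9 reached 1 TPM in both animals.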

How the data were processed

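Total RNA-seq of 2 gastrocnemius libraries was analysed. The authors deposited expected counts and TPM per gene and, in the first transcript table, per transcript, with columns as in RSEM output per the file headers. Each count carries a posterior SD, a score of read assignment in reads that the authors deposited. For the second transcript table the authors deposited estimated counts and TPM under kallisto's columns, per the file headers. Build mm10 and annotation GENCODE M21 come from the file lists. Neither tool versions nor a strand setting are stated there (not given in the sources used here). TPM has a fixed sum, so an abundant RNA lowers all others, and reads of a B6 by CAST cross were counted on a B6 genome.

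Genes at 1 TPM or more in both animals were called detected. Log2 ratios of TPM had 0.1 added to each level, and one counted as beyond the spread if its mean was over 2 SD and its sign the same in both mice. Expected counts were rounded and scaled with edgeR's TMM factors, with a prior count of 0.5 and a mean count of 100 or more. The deposited percent of each gene's TPM per transcript was recomputed from TPM. A giant is a transcript of 20000 nt or more. Transcripts at 10% of their gene or more in both animals of either table were named, as were all 10 genes, and of each related list the 3 of highest mean TPM and any gene 2-fold apart with a mean count of 100 or more. The members and lists were chosen with earlier results of these data known. No genes of like pattern were sought, since 2 libraries give none. The 26249 rows with no gene name held 4 and 5 reads (8.84e-06% and 1.04e-05%) in the 2 libraries and stayed out of library sizes, as did the spike-ins. Scaling was tested on simulated counts. Promoter and transcript sequences came from RefSeq and GENCODE. Protein sequences were not used here. Sequence of Lmna is not reported here. Alternatives were other scalings (DESeq2's median of ratios, library size, spike-ins), pseudocounts, thresholds, the second table and each library left out. Software was edgeR 4.0.16 and DESeq2 1.42.0 on R 4.3.3, with scipy 1.17.1, pandas 2.3.3, numpy 2.4.6 and matplotlib 3.10.9 on Python 3.11.15.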

Additional observations from a re-analysis of the deposited data

How the results depend on the processing

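The 3 gene ratios kept their direction and stayed beyond 2 SD under other pseudocounts, counts not divided by length, posterior mean TPM and the second transcript table. Syne1 over Syne2 was furthest from its log2 value of 1.69 with counts not divided by length, at 2.31. The other 2 ratios were furthest from their main values in the second transcript table. There Sun1 over Sun2 was -0.37 against -1.03, and Lmna over the B-type genes 3.88 against 3.27. All 10 genes stayed at 1 TPM or more in every setting but a threshold of 5 TPM, which 7 passed, and 0 were 2-fold apart under any scaling, prior count or filter. The summed level of the 10 genes was 145 ± 10.3 TPM, 246 TPM in the second table and 386 TPM with TPM taken over nuclear protein-coding genes only. The giant share of Syne1 was 27.8%, 30.8% in the second table, 28.6% over protein-coding transcripts and 75.7% of expected counts. That of Syne2 was 21.8%, 26.3% in the second table, 33.6% over protein-coding transcripts, 70.3% of expected counts and 19.6% by posterior mean TPM. The lamin A share was 37.2%, 24.2% in the second table, 36.5% over all transcripts and 36.2% by posterior mean TPM. Over Lmna-201 and Lmna-203 alone, chosen after seeing the data, it was 37.8%, and 51.6% in the second table. The KASH-ended share, also added later, counted only protein-coding transcripts as KASH-ended. It was 83.0% for Syne1, 79.5% in the second table and 93.7% of expected counts. For Syne2 it was 31.8%, 33.1% in the second table and 80.0% of expected counts. The leading transcript was the same in the second table for 5 of 10 genes (Lmnb1, Emd, Syne1, Syne3, Sun2). Of 10 differences between animals, library size changed the sign of 3, spike-in scaling of 2 and the second table of 1. The cause of these changes was not tested.

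With each replicate left out, the log2 ratio of Lmna over the B-type genes ran from 3.21 to 3.34, of Syne1 over Syne2 from 1.58 to 1.80 and of Sun1 over Sun2 from -1.04 to -1.02. The giant shares ran from 27.7% to 27.9% for Syne1 and from 21.7% to 21.8% for Syne2, the lamin A share from 36.9% to 37.4%, and the summed level from 138 to 153 TPM. No paired analysis was possible because there is 1 group of samples. With 2 libraries, an SD rests on 1 degree of freedom, and members with few reads (Lmnb2 at 177 and 141) are the least precise.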
